A study of Homo sapiens with 22 samples.

Results

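Open chromatin was compared directly between a pair of KMS11 myeloma cell groups meant to have less of the histone methyltransferase NSD2. They were KMS11 TKO cells at day 0, and KMS11 cells kept with the degrader NSD2LDD to day 10. The peaks of the 4 ATAC-seq libraries, 2 a group, were merged on chromosomes 1 to 22 and X into 46574 regions. The 22 libraries of the whole series gave 96160 regions. A region was called open in a group when it held a peak in 2 of 2 libraries and closed when it held one in 0 of 2.

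NSD2 places dimethyl marks on lysine 36 of histone H3. In t(4;14) myeloma the gene lies under immunoglobulin enhancers and is overproduced, the mark spreads into intergenic chromatin, and the opposing lysine 27 trimethyl mark is displaced. A degrader acts on the protein in cells that have carried the translocation throughout. Gene targeting of an allele gives a cell that has grown without that allele's product since it was made. Protein from an allele left intact would remain. ATAC-seq cuts accessible DNA with the Tn5 transposase, so that a peak marks an open promoter, enhancer or other regulatory site.

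KMS11 and KMS34 are established human myeloma lines. All groups but one carry the genotype label t(4;14); the exception has the genotype label TKO, which the labels do not expand. In the field that name is used for a KMS11 derivative in which the translocated NSD2 allele was inactivated by gene targeting; this could not be checked here, and such a line is a clone. The KMS11 groups were TKO at day 0 with no treatment, untreated KMS11 at day 0, vehicle (DMSO) at days 4 and 10, and NSD2LDD at days 4 and 10, at a concentration not given in the labels. KMS34 gave 5 further groups that entered the estimate of the spread. The libraries of a group are numbered duplicates. Nothing says that they came from separate cultures, so p-values measure the spread between these libraries, which may be technical. Culture day, clone and list length cannot be told apart from the difference between TKO and NSD2LDD.

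The TKO lists held 30699 and 26887 peaks and the NSD2LDD day 10 lists 35825 and 37695. The covered lengths were 19.3 and 13.3 Mb in TKO and 18.0 and 27.1 Mb with NSD2LDD. The untreated day 0 lists held 36913 and 24979 peaks, the second being the shortest of the series. Read depth is unknown, and the number of peaks called is the only trace of it. The pair of TKO libraries shared 0.567 of the bases that either covered, the NSD2LDD pair 0.556, and a TKO with an NSD2LDD library 0.438 to 0.576. NSD2LDD and DMSO libraries of day 10 shared 0.672 and 0.679 where their duplicate numbers matched and 0.559 and 0.563 where they did not, so that same-numbered libraries of the pair were more alike than the duplicates of either group. Of 24 plasma cell markers 21 had a peak in TKO and 22 with NSD2LDD, and SLAMF7 and GPRC5D had none in either group. Markers of other cells also held peaks, in TKO and with NSD2LDD: 12 and 12 of 19 for B cells, 14 and 15 of 21 for T and NK cells, 12 and 12 of 20 for stromal and endothelial cells, 8 and 10 of 17 for erythroid cells and megakaryocytes, and 7 and 10 of 18 for myeloid cells. MS4A1, CD3D, GATA1, CD14, CSF1R and MPO had none in either group. A peak at a marker gene is thus a weak check of cell type here, and the part of other cells in the results was not tested.

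The NSD2 gene with 5 kb on either side was covered by peaks over 770 and 374 bp in TKO and over 1225 and 868 bp with NSD2LDD. The groups did not overlap, and the difference did not pass the test given further on (log2 difference -0.43 ± 0.51 SE, limma adjusted p = 0.846). Untreated KMS11 at day 0 had 458 and 494 bp, between the TKO values (TKO minus untreated log2 difference -0.002). Open chromatin over the gene measures neither its transcript nor its protein, so it checks neither group's label.

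Most regions that were called in all libraries of 1 group were called in the other too. All 4 libraries held a peak in 20878 regions, 44.8% of the whole. A further 4600 regions, 9.88%, were open with NSD2LDD and closed in TKO, and 534, 1.15%, were open in TKO and closed with NSD2LDD. In the other 20562 regions at least 1 pair of duplicates was split. Regions open with NSD2LDD alone outnumbered those open in TKO alone 8.61 to 1. With every list cut to its 24979 strongest peaks, the numbers were 1975 and 1241, a ratio of 1.59 to 1. Without the second TKO library, which has the shorter list, they were 5681 and 3013, a ratio of 1.89 to 1, and without the first TKO library 7486 and 1816, a ratio of 4.12 to 1. Without the first NSD2LDD library they were 9855 and 863, a ratio of 11.4 to 1, and without the second 8229 and 1365, a ratio of 6.03 to 1. Regions open with NSD2LDD alone were the more numerous in each of these settings, and the size of the ratio moved with the libraries used.

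The regions of 1 group alone were narrow and weak beside the shared ones. Shared regions had a median length of 931 bp, those open with NSD2LDD alone 490 bp and those open in TKO alone 430 bp. Regions were ranked by the authors' −log10 q-value of their strongest peak. The median shared region ranked at percentile 69.5 and 71.2 of the 2 NSD2LDD lists. The median region open there alone ranked at 29.8 and 32.3. In the TKO lists shared regions ranked at percentile 65.5 and 60.4 and those open in TKO alone at 23.8 and 19.8. Of shared regions 45.3% lay within 1 kb of an end of a protein-coding gene, against 7.57% of those open with NSD2LDD alone and 4.68% of those open in TKO alone. Intergenic positions made up 16.0%, 34.3% and 32.8% of the 3 classes, and positions more than 50 kb from any protein-coding gene 10.1%, 28.7% and 24.7%.

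Every chromosome held more regions open with NSD2LDD alone than in TKO alone. Their share of a chromosome's regions ran from 4.35% on chromosome 19 to 12.9% on chromosome 18. The 3 fullest bins of 1 Mb held 11 such regions each and 0 of the opposite class. They were chr12:58000001-59000000, with 2 regions in LRIG3, a leucine-rich membrane protein gene; chr4:95000001-96000000, with 5 regions in the netrin receptor gene UNC5C and 2 in the BMP receptor gene BMPR1B; and chr4:107000001-108000000, with 3 in the sphingomyelin synthase gene SGMS2. Regions open in TKO alone were at most 4 to a bin. Of these bins 1 was chr19:54000001-55000000 around LAIR1, and another chr2:233000001-234000000, with 3 regions in INPP5D, the lipid phosphatase SHIP1.

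The other KMS11 libraries show to which side each class belongs. Regions open with NSD2LDD alone had a peak in 74.7% and 42.7% of cases in the 2 untreated day 0 libraries, and both DMSO day 10 libraries held a peak in 62.2% of them. Both NSD2LDD day 4 libraries did so in 65.9% and both DMSO day 4 libraries in 66.3%. All 8 KMS11 libraries outside the comparison held a peak in 31.7% of these regions and none of the 8 in 2.37%. They were mostly sites that KMS11 cells had open in DMSO too. Regions open in TKO alone were rarely open elsewhere in KMS11: both untreated day 0 libraries held a peak in 2.81%, both DMSO day 10 libraries in 8.43%, and none of the 8 libraries in 46.4%. In KMS34 both libraries of a group held a peak in 21.3% to 29.0% of them.

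**Figure D1:**
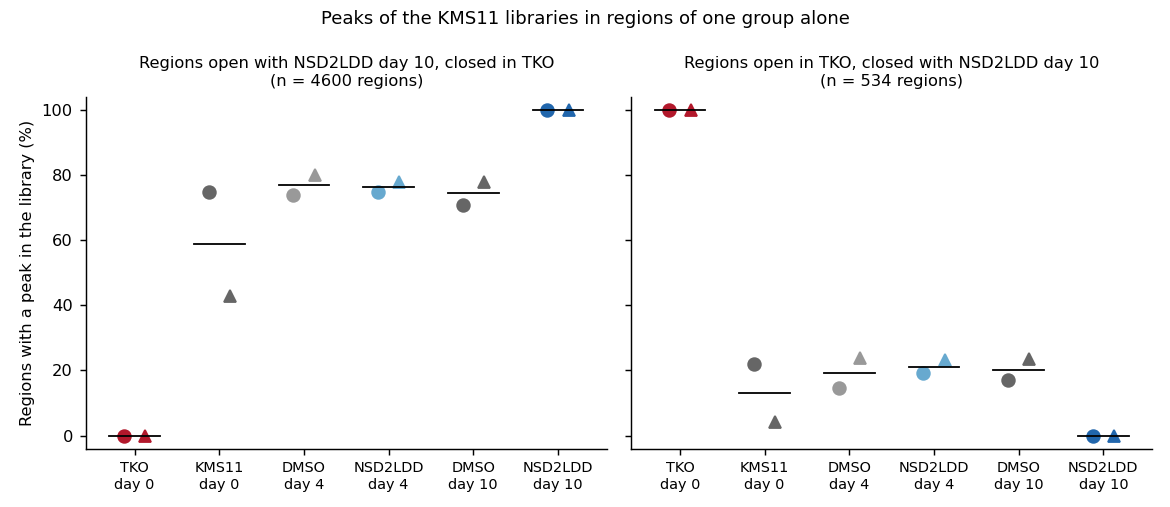
Share of regions (%) with a peak in each of the 12 KMS11 libraries, for the 4600 regions open with NSD2LDD day 10 and closed in TKO (left) and the 534 of the opposite class (right). Circles are duplicate 1, triangles duplicate 2, lines the mean of the pair; 100% and 0% at the ends follow from the rule. Of the middle groups, untreated and DMSO libraries sit close to NSD2LDD day 4 in both panels, with the second untreated day 0 library, whose list is the shortest, lowest.

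Promoters made up a small part of the differing regions. Of 19974 protein-coding genes 15812 matched a RefSeq promoter (GRCh38.p14), taken from 250 bases before to 50 after the start. A region shared by all 4 libraries overlapped 8433 of them, a region open with NSD2LDD alone 190, and a region open in TKO alone 4. Counting CG pairs, the median promoter held 28 in the shared set, 27 in the NSD2LDD set and 5.5 in the 4 TKO promoters, against 22 over all promoters. The strongest differences of each direction are shown as sequence, with CG pairs in capitals. TENM4 encodes a teneurin, a cell-surface adhesion protein of neurons, HUNK a kinase and PPP1R9A the actin-binding protein neurabin; SHROOM3 encodes an actin regulator of cell shape and LRRC3 a leucine-rich repeat protein. The windows are chr11:79440981-79441280 on the minus strand for TENM4, chr21:31872770-31873069 on the plus strand for HUNK, chr7:94907344-94907643 on the plus strand for PPP1R9A, chr4:184314280-184314579 on the minus strand for MYL12BP2, chr4:76434979-76435278 on the plus strand for SHROOM3 and chr21:44455260-44455559 on the plus strand for LRRC3. The first 3 were open with NSD2LDD at day 10 and closed in TKO, and the last 3 the reverse. At day 4 the NSD2LDD libraries held 410 and 535 bp of peaks at LRRC3 and 208 and 348 bp at SHROOM3. They held 0 and 0 bp at MYL12BP2. The DMSO day 4 libraries held 195 and 243 bp at SHROOM3.
TENM4: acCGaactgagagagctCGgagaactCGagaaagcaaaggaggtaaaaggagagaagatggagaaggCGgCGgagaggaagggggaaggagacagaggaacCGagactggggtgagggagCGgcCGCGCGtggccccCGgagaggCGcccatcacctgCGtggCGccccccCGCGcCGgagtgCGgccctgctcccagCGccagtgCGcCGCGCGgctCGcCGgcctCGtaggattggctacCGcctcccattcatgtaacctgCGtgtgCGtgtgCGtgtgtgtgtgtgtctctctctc
HUNK: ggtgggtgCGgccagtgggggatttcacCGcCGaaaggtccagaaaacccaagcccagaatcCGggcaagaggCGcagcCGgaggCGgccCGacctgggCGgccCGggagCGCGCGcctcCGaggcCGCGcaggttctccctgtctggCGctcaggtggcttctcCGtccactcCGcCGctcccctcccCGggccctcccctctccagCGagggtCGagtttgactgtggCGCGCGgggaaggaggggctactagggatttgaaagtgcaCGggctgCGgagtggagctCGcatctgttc
PPP1R9A: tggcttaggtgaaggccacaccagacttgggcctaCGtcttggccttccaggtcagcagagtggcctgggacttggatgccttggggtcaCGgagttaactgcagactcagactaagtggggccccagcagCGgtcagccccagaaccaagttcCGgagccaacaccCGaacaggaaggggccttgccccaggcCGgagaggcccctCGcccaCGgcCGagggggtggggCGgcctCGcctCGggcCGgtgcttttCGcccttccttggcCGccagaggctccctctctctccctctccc
MYL12BP2: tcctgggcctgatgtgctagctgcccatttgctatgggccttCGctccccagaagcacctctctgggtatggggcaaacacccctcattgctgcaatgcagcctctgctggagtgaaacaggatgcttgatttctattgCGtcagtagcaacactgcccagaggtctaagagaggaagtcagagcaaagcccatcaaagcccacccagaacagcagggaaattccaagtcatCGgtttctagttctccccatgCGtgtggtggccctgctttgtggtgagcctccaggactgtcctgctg
SHROOM3: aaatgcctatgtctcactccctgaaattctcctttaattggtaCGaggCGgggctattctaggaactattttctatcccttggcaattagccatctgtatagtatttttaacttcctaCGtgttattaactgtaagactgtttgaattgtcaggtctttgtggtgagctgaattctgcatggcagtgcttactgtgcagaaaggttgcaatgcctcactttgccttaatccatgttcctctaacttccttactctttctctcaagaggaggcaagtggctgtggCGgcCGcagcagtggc
LRRC3: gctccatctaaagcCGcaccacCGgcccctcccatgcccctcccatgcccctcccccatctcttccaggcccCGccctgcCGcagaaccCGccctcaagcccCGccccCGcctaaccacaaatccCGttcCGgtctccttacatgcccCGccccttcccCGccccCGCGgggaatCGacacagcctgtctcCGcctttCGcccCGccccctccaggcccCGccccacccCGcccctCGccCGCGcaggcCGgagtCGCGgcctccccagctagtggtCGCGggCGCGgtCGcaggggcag
CG pairs numbered 30 in TENM4, 29 in HUNK and 15 in PPP1R9A, and 4 in MYL12BP2, 5 in SHROOM3 and 30 in LRRC3. With 4 promoters in the TKO set, and 1 of the 3 shown as rich in CG as TENM4, no rule about base composition can be read from them.

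Short motifs were searched on both strands of each promoter. The ETS motif CCGGAAG lay in 22.5% of the promoters shared by all 4 libraries, 7.89% of those open with NSD2LDD alone and 14.2% of all promoters. The NRF1 half-site GCGCATG lay in 8.89%, 2.63% and 5.87%. For the AP-1 motif TGANTCA the shares were 3.34%, 3.68% and 5.75%, and for the GC box GGGCGG 75.8%, 72.1% and 58.5%. Shares for the MAF half-site TGCTGA were 11.4%, 15.3% and 15.1%. For the CRE core ACGTCA they were 12.9%, 6.84% and 9.66%, and for the E-box CACGTG 11.1%, 10.0% and 8.87%. The motif AAGTGAA, a core of PRDM1 and IRF sites, lay in 2.95%, 4.21% and 3.78%, CCAAT in 38.6%, 27.9% and 36.3%, and TATAAA in 4.42%, 4.74% and 9.64%. These shares are descriptions with no test, and a match of letters is not a bound site.

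To test single regions, the bases covered by peaks in each library were compared as log2(covered bases + 100), less the library's median over regions called in every library, with limma across all 22 libraries. Of 42837 regions called in at least 2 libraries, 3149 (7.35%) were lower and 531 (1.24%) higher in TKO than with NSD2LDD at an adjusted p of 0.05. The lower regions made up 85.6% of the calls; the share was 61.5% with lists of equal length, 71.0% with quantile normalization and 90.3% with no scaling, which moved the median difference over all regions from -0.12 to -0.35. With the 4 libraries alone limma called 0 regions, with 6038 at an unadjusted p under 0.05, against 8443 in the whole set. Without the second TKO library 947 regions were higher. Of the 3149 lower regions 2662 belonged to those open with NSD2LDD alone, and of the 531 higher ones 433 to those open in TKO alone. Against the vehicle at day 10 TKO was lower in 2495 regions (5.82%) and higher in 587 (1.37%), and against NSD2LDD at day 4 lower in 3034 (7.08%) and higher in 654 (1.53%). Against untreated KMS11 at day 0 it was lower in 2159 (5.04%) and higher in 942 (2.2%). These comparisons share the TKO libraries and are set side by side only. At the threshold, a region near HAND2 (chr4:173746347-173746728) with 0 and 0 bp in TKO and 226 and 382 bp with NSD2LDD had an adjusted p of 0.04998 and fell just inside, and one near OTUD4 with 299 and 173 bp in TKO and 0 and 0 bp with NSD2LDD had 0.05003 and fell just outside, both by limma.

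Among the 8 strongest regions open with NSD2LDD and closed in TKO, the one in FABP7, a brain fatty acid-binding protein gene, was chr6:122752460-122754037. It held 1263 and 1578 bp of peaks with NSD2LDD, 680 and 1281 bp in DMSO day 10, 1226 and 1015 bp in untreated day 0 and 0 bp in both TKO libraries. Every KMS11 library outside TKO was high, and no library of the 5 KMS34 groups had a peak there. A region in RORA, a nuclear receptor gene (chr15:60767481-60769137), held 1181 and 1552 bp with NSD2LDD and 0 bp in TKO, and 1 KMS34 library had a peak. The region at the TENM4 start (chr11:79439823-79441182) held 1278 and 1360 bp with NSD2LDD and 0 bp in TKO, and all KMS34 libraries had a peak. The log2 differences of these 3 regions were -3.69, -3.63 and -3.60 (limma adjusted p = 1.46e-06, 8.58e-05 and 1.83e-08). The other 5 lay at SLCO5A1, KHDRBS2, HUNK, SERTAD4 and PPFIBP2. In all 8 both untreated, both DMSO day 10 and all day 4 libraries had a peak.

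Of the 8 strongest regions in the opposite direction, the 1 seen in KMS34 throughout lay 11.8 kb from LAIR1, the gene of an inhibitory collagen receptor of leukocytes (chr19:54387889-54388811). It held 923 and 505 bp in TKO and 0 bp in the other 10 KMS11 libraries, and a peak in all KMS34 libraries (log2 difference 3.21 ± 0.30 SE, limma adjusted p = 7.35e-06). The strongest lay in CHST15, a chondroitin sulfate sulfotransferase gene (chr10:124035560-124036467), with 799 and 656 bp in TKO and 0 bp with NSD2LDD day 10, and 361 bp in the second NSD2LDD day 4 library. The others lay at MYL12BP2, PRR23C, LOC124902436, MYO3A, CDV3 and LOC124900868. None of these 6 had a peak in KMS34, and each had a peak in 1 or 2 of the 8 other KMS11 libraries.

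Covered bases were then summed over each protein-coding gene and 5 kb either side and compared as log2(covered bases + 200). Of 16738 genes, 463 (2.77%) were lower in TKO than with NSD2LDD and 44 (0.263%) higher. With lists of equal length the counts were 244 and 81, so that lower genes fell from 91.3% to 75.1% of the calls. Without the first or the second NSD2LDD library 297 or 192 genes were lower, and without the second NSD2LDD, the first TKO or the second TKO library 20, 22 or 23 were higher. In 171 of the 463 neither TKO library had a peak, and in 21 of the 44 neither NSD2LDD library had one. The lower genes were long: their median length was 147.2 kb, against 30.4 kb over the genes tested and 24.0 kb for the higher ones, and a longer window holds more regions. Against untreated KMS11 at day 0, TKO was lower at 559 genes (3.34%) and higher at 226 (1.35%), and against DMSO day 10 lower at 545 (3.26%) and higher at 69 (0.412%). These comparisons share the TKO libraries. In the degrader's own comparison limma called 1 gene lower (0.00597%) and 1 higher (0.00597%), with 569 at an unadjusted p under 0.05. The 1 lower gene, SPOCK1, which encodes a proteoglycan, had 654 and 1222 bp in DMSO, 0 and 233 bp with NSD2LDD and 0 and 0 bp in TKO; the higher was KCNC1, a potassium channel gene, with 0 and 0 bp in DMSO and 571 and 498 bp with NSD2LDD.

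The genes with the largest falls had no peak or almost none in TKO and peaks in every other KMS11 library. Those peaks covered from 332 bp (THSD4, an untreated day 0 library) to 5787 bp (ZMAT4, an NSD2LDD day 10 library). A log2 difference against a group at 0 bp depends on the 200 added bases. ZMAT4, a zinc finger protein gene, had 0 and 0 bp in TKO, 4035 and 5787 bp with NSD2LDD, 3584 and 5012 bp in DMSO day 10 and 3736 and 1115 bp in untreated day 0 (TKO minus NSD2LDD log2 difference -4.36 ± 0.38 SE, limma adjusted p = 6.23e-06). PDE10A, whose enzyme breaks down cyclic AMP and cyclic GMP, had 0 and 0 bp in TKO, 2690 and 3573 bp with NSD2LDD, 2334 and 5356 bp in DMSO day 10 and 3490 and 2284 bp in untreated day 0 (-3.75 ± 0.23 SE, limma adjusted p = 5.43e-07). TKO stood apart from all 10 other KMS11 libraries at both genes. The endocytosis gene SNX9 had 0 and 0 bp in TKO and 2512 and 2868 bp with NSD2LDD, and the receptor phosphatase gene PTPRO 0 and 0 bp against 1625 and 4030 bp. For FABP7, whose window overlaps SMPDL3A, the lengths were 25 and 0 bp in TKO and 2121 and 2717 bp with NSD2LDD. THSD4, MALRD1, KIAA1217, SLC4A4 and PPP1R9A completed the 10, with log2 differences of -3.38, -3.31, -3.27, -3.25 and -3.21. SLC4A4 encodes a sodium bicarbonate cotransporter and THSD4 a matrix protein of microfibrils. In all 10 genes both untreated and both DMSO day 10 libraries were above both TKO libraries.

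Most of the largest rises were at genes with no peak in the other KMS11 libraries. LAIR1 had 2386 and 925 bp in TKO and 0 bp in each of the other 10 KMS11 libraries (log2 difference 3.38 ± 0.43 SE, limma adjusted p = 0.000201). The receptor phosphatase gene PTPRS had 1729 and 500 bp in TKO and 0 bp in the other 10 (2.83 ± 0.35 SE, limma adjusted p = 0.000143). OCSTAMP, a membrane protein gene of osteoclast fusion, had 651 and 436 bp in TKO, and FCN2, a lectin gene of the complement system, 775 and 324 bp, both with 0 bp in the other 10. At these 4 genes open chromatin was seen in TKO and in no other KMS11 library. CSF2RB, the beta chain shared by the GM-CSF, interleukin 3 and interleukin 5 receptors, had 1192 and 324 bp in TKO and 0 and 0 bp with NSD2LDD day 10. It had 467 bp in 1 DMSO day 10 library, 297 bp in 1 DMSO day 4 library and 269 bp in 1 NSD2LDD day 4 library. CD5L, a secreted macrophage protein gene, had 951 and 373 bp in TKO, 0 and 0 bp with NSD2LDD day 10, 404 and 389 bp in DMSO day 10 and 0 and 0 bp in untreated day 0. At day 4 it had 246 and 638 bp with NSD2LDD and 0 and 296 bp in DMSO. TKO did not differ at CD5L from NSD2LDD day 4 or DMSO day 10 by the test (limma adjusted p = 0.597 and 0.621). IL31RA, SAG, HLA-DPA1 and RFTN2 completed the 10, with log2 differences of 2.05, 1.94, 1.89 and 1.87. These genes had been ordered by size alone. The list of 18 myeloid markers had 0 members higher and VCAN lower among the 13 tested, beside 0.263% and 2.77% of all genes.

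**Figure D2:**
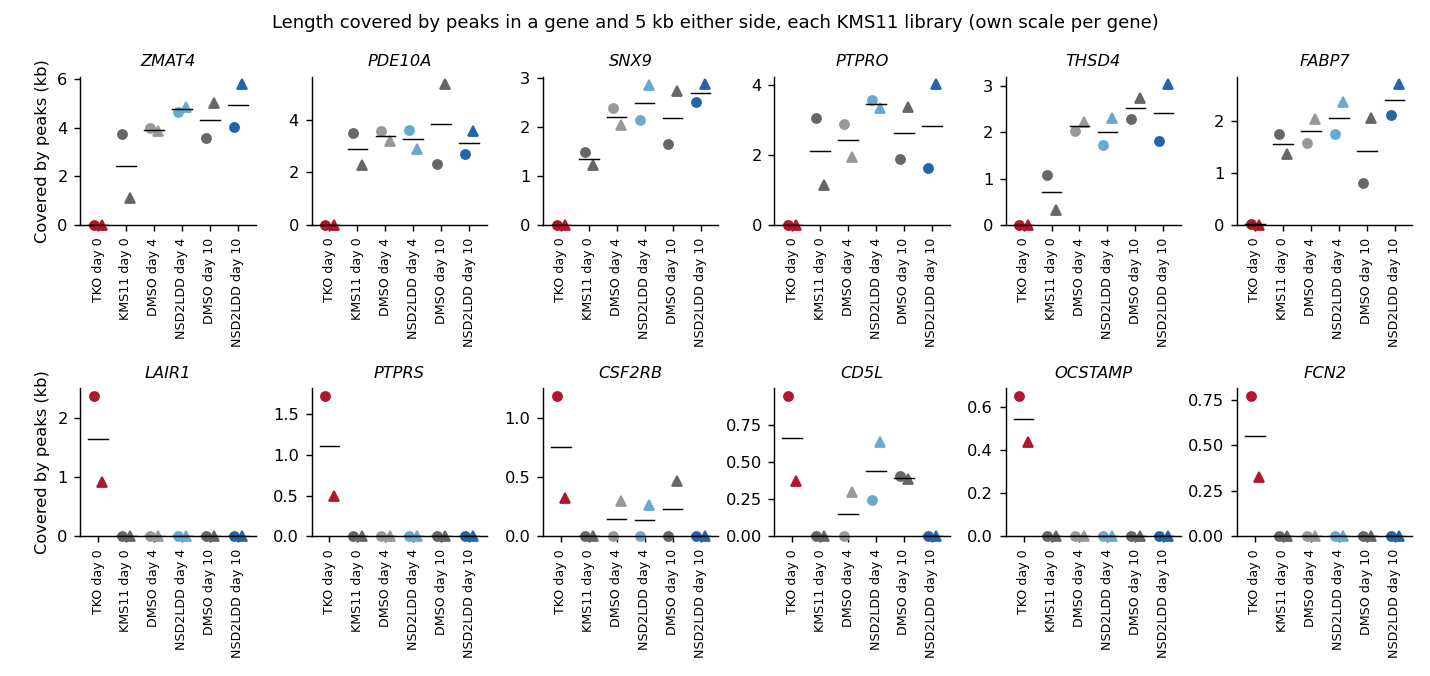
Length covered by peaks (kb) in the gene and 5 kb either side, in each of the 12 KMS11 libraries, for 6 of the 10 genes with the largest falls (top) and 6 of the 10 with the largest rises (bottom) in TKO against NSD2LDD day 10; each panel has its own scale. Circles are duplicate 1, triangles duplicate 2 and lines the mean of the pair; the TKO points sit at or near 0 in the top row, and those of LAIR1, PTPRS, OCSTAMP and FCN2 are the only ones above 0 in their panels.

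Of 18 genes tied to t(4;14) and NSD2, 3 were lower in TKO than with NSD2LDD, beside 2.77% of all genes. RRAS2, a RAS-related GTPase gene, had 0 and 0 bp in TKO and 979 and 1375 bp with NSD2LDD (-2.48 ± 0.19 SE, limma adjusted p = 1.65e-06). Over gene ends alone the value was 0.20, the same as at WT1 and KCNMA1. Scaling gives such a shared value where neither group has a peak. PAK1, a kinase gene downstream of RAC and CDC42, had 911 and 431 bp against 1726 and 2717 bp, and the cyclin gene CCND2 828 and 559 bp against 1586 and 1709 bp. Untreated KMS11 had 1115 and 906 bp at CCND2, between the groups, and its difference from TKO did not pass the test (limma adjusted p = 0.0575). At the remaining genes followed throughout, differences did not pass the test. FGFR3, the other gene at the breakpoint, had 1340 and 252 bp in TKO and 673 and 1263 bp with NSD2LDD (log2 difference -0.15), and MYC 1737 and 1527 bp against 1768 and 2102 bp (0.07 after scaling). The myeloma transcription factor genes IRF4 and MAF differed by 0.26 and 0.04. The unscaled lengths of the groups overlapped at FGFR3, IRF4 and MAF and not at MYC.

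The list of axon guidance and synapse genes held the most calls of the 21 lists. Of its 50 genes 13 were lower and 1 higher, beside 2.77% and 0.263% of all genes, the median log2 difference was -0.71 against 0.05 over all genes, and in the comparison of NSD2LDD with DMSO at day 10 the list's median was -0.06. SLIT3, a secreted repulsive guidance cue, had 0 and 0 bp in TKO and 633 and 1754 bp with NSD2LDD. The ephrin receptor gene EPHB1 had 1590 and 978 bp against 3899 and 5687 bp, the glutamate receptor gene GRID1 0 and 502 bp against 3351 and 3821 bp, and the netrin gene NTN4 0 and 0 bp against 731 and 605 bp. NLGN4X, NLGN1, CNTN4, CNTNAP5, UNC5C, CNTNAP2, NRP2, LRRTM4 and LRRC4C were the other lower members and ROBO2 the higher one. Many are long genes, and the part of gene length in the difference was not tested. Of 39 ion channel genes 6, beside the same 2.77%, were lower (KCNMA1, CACNA2D1, TRPM3, KCNN2, KCNH8 and KCNQ3) and 0 higher, with a median of -0.28. KCNMA1, a calcium-activated potassium channel, had 0 and 0 bp in TKO and 335 and 763 bp with NSD2LDD. The gene had 926 and 1268 bp in DMSO day 10 and 1607 and 592 bp in untreated day 0. Over gene ends alone its value was 0.20, as at RRAS2, which scaling gives where neither group has a peak. CACNA2D1, a calcium channel subunit, had 611 and 338 bp in TKO and 1568 and 2387 bp with NSD2LDD.

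Of 54 developmental regulators tested 6 were lower and 0 higher, beside 2.77% and 0.263% of all genes. SOX5 had 0 and 0 bp in TKO and 1505 and 2215 bp with NSD2LDD (-3.05 ± 0.23 SE, limma adjusted p = 1.65e-06), and GATA6 0 and 0 bp against 914 and 1191 bp. NKX2-1, WT1 and FOXA1 were also lower. Untreated KMS11 at day 0 had 423 and 0 bp at NKX2-1 and 277 and 0 bp at WT1. At neither gene did its difference from TKO pass the test (limma adjusted p = 0.170 and 0.233). With lists of equal length the value at NKX2-1 was 0.20, the same as at CD6. Over gene ends alone the value at WT1 was 0.20, the same as at RRAS2. Such shared values are what scaling gives where neither group has a peak. Of 20 phosphodiesterase genes PDE10A and PDE1C were lower. PDE1C had 0 and 0 bp in TKO, 550 and 1386 bp with NSD2LDD and 1934 and 2834 bp in DMSO day 10, so that the degrader group lay between; the difference from DMSO did not pass the test (limma adjusted p = 0.419). Of 20 receptor-type tyrosine phosphatase genes PTPRZ1, PTPRO and PTPRE were lower and PTPRS higher. PTPRE lay at the threshold (limma adjusted p = 0.0493) and lost its call in 16 alternatives, with adjusted p-values up to 0.843, whereas PTPRZ1 kept its call in all that were run. PTPRZ1 had 215 and 156 bp in TKO against 1797 and 1903 bp with NSD2LDD. Of 36 adhesion genes NCAM2, ITGA2, CDH1 and CXCR4 were lower and 0 higher. CXCR4, the receptor that holds plasma cells in the marrow, had 1026 and 603 bp in TKO and 1603 and 2067 bp with NSD2LDD, and untreated KMS11 at day 0, with 1410 and 667 bp, differed from TKO by less than the test could call (limma adjusted p = 0.202).

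Of 33 interferon response genes RSAD2, MX1 and MX2 were lower and 0 higher, and of 32 housekeeping genes 1 was lower and 0 higher, beside 2.77% and 0.263% of all genes. The housekeeping count is near that share. RSAD2, which encodes the antiviral enzyme viperin, had 0 and 0 bp in TKO and 983 and 1309 bp with NSD2LDD, and untreated KMS11 had 1342 and 312 bp. Of 24 antigen presentation genes HLA-B was lower and HLA-DPA1 higher. HLA-B had 367 and 335 bp in TKO and 889 and 1175 bp with NSD2LDD, but 365 and 353 bp in untreated KMS11 at day 0, so that both day 0 groups were low. KDR, an endothelial receptor gene, had 232 and 165 bp in TKO, 1240 and 1582 bp with NSD2LDD and 368 and 163 bp in untreated day 0. At HLA-B and KDR the difference between TKO and untreated KMS11 did not pass the test (limma adjusted p = 0.803 and 0.829), and TKO and untreated KMS11 share the day.

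Lists of plasma cell identity (24 genes), NF-kappaB (20), apoptosis (29), and lysine 36 and lysine 27 methylation (30) had 0 genes called by limma in either direction, with 1, 3, 2 and 1 at an unadjusted p under 0.05. BCL11A was lower among 16 B cell genes, SPRY2, a feedback inhibitor of receptor signalling, among 30 AP-1 and MAPK genes, and CCND2 among 38 cell cycle genes. Over all genes 2.77% were lower and 0.263% higher. Beside those shares, a count of 0 or 1 in lists this short is no result about the list. Among markers of other cell types CD6 was lower of 17 for T and NK cells, and VWF and KDR of 15 for stromal and endothelial cells. Of 10 for erythroid cells and megakaryocytes 0 were lower, and 0 had an unadjusted p under 0.05. At VWF untreated KMS11 at day 0 had 584 and 0 bp, and its difference from TKO did not pass the test (limma adjusted p = 0.886). With lists of equal length the value at CD6 was 0.20, as at NKX2-1, which scaling gives where neither group has a peak.

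**Figure D3:**
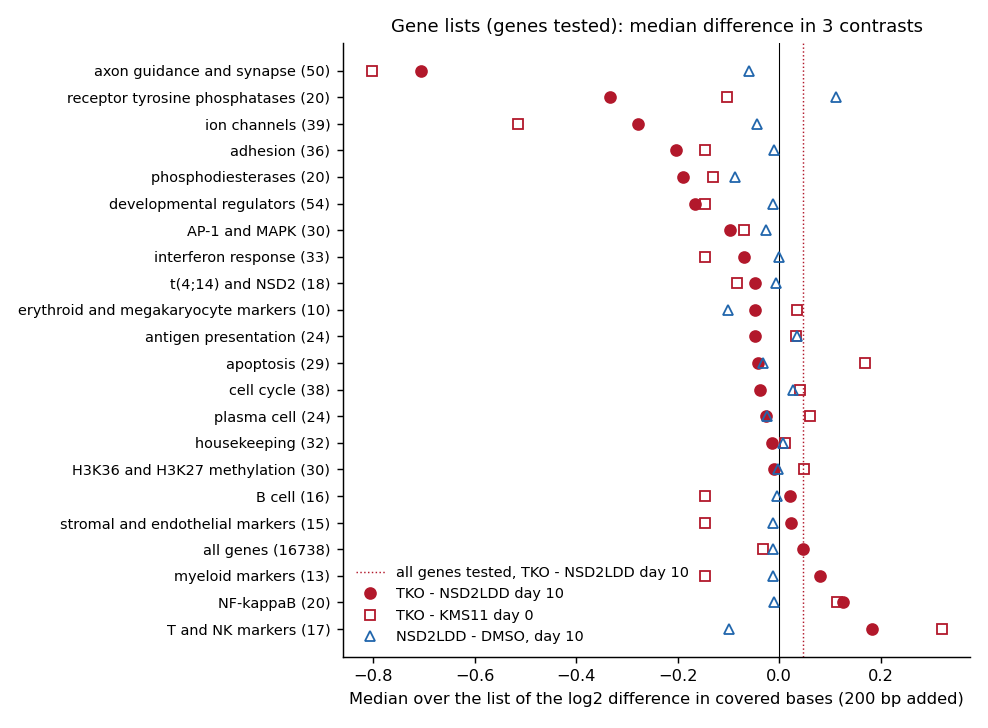
Median log2 difference in covered bases (200 bp added) over the tested genes of each list, for TKO minus NSD2LDD day 10 (filled circles), TKO minus untreated KMS11 day 0 (squares) and NSD2LDD minus DMSO at day 10 (triangles); the number tested is in brackets and the dotted line is the median of all genes in the first contrast. Axon guidance and synapse genes lie lowest in the TKO contrasts, at -0.71 and -0.80, and at -0.06 in the degrader contrast.

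TKO was next set against untreated KMS11 at day 0, and NSD2LDD against DMSO at day 10. These 2 comparisons, each with its own control, share no library. Over the regions of all 22 lists, 20805 were open in both untreated and both DMSO day 10 libraries. Of these, 1960 (9.42%) had no peak in either TKO library and 118 (0.567%) none in either NSD2LDD day 10 library. The 2 sets shared 99 regions, 83.9% of the regions lost with NSD2LDD and 5.05% of those lost in TKO. Of the regions lost in TKO, 1604 (81.8%) were open in both NSD2LDD libraries, whereas 5 (4.24%) of the regions lost with NSD2LDD were open in both TKO libraries. With lists of equal length 1414 and 200 regions were lost and 141 in both, 70.5% of those lost with NSD2LDD. Without the second untreated day 0 library 3489 and 386 were lost and 298 in both, 77.2% of those lost with NSD2LDD. Without the first TKO library 2941 were lost in TKO. Without the first DMSO library 266 were lost with NSD2LDD and 222 in both, and with the second or the first NSD2LDD library alone 317 and 224 or 419 and 231, of which 70.7% and 55.1% were lost in both.

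Regions with little covered length in the controls made up most of the lost ones in either group. The 20805 were put in 4 groups of like size by their covered length. In the group with the least, 195.25 to 482.25 bp on average over the 4 control libraries, 1218 regions (23.4%) were lost in TKO and 105 (2.02%) with NSD2LDD, 87 of them in both. In the next group 521 (10.0%) and 11 (0.211%) were lost, all 11 in both. In the top group 41 (0.788%) were lost in TKO and 0 with NSD2LDD. Lost regions lay away from genes' ends: 6.89% of those lost in TKO and 1.69% of those lost with NSD2LDD lay within 1 kb of one, against 44.0% of the 20805.

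**Figure D4:**
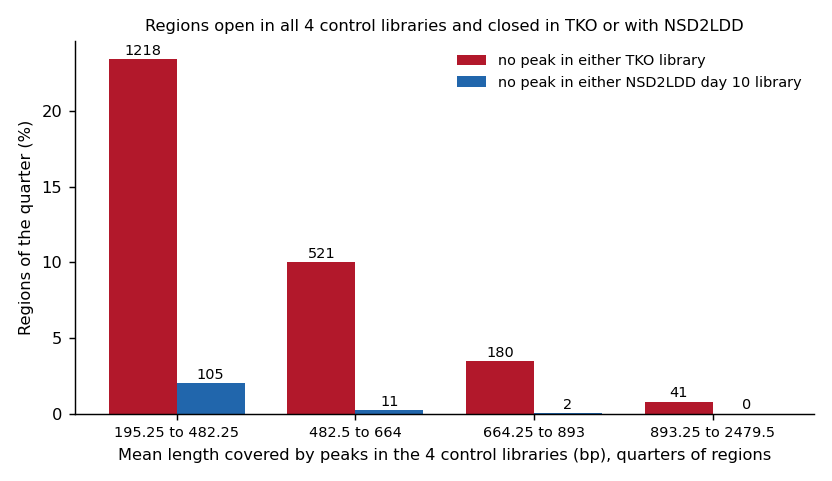
Share of regions (%) with no peak in either TKO library (red) or in either NSD2LDD day 10 library (blue) among the 20805 regions open in all 4 control libraries, in 4 groups of like size by mean covered length (bp) in those controls; numbers above the bars count regions. Both series are highest in the group with the least covered length and lowest in the top group, where 41 and 0 regions were lost.

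The 99 regions lost in both were mostly open at day 4: both NSD2LDD day 4 libraries held a peak in 70 of them and both DMSO day 4 libraries in 84. In KMS34 both NSD2LDD day 10 libraries held a peak in 40 and both DMSO day 10 libraries in 60. The KMS34 counts were 49 at day 0, 52 in DMSO day 4 and 52 with NSD2LDD day 4. Regions lost in TKO but open with NSD2LDD in KMS11 had a like gap in KMS34. There the day 10 shares were 44.6% with NSD2LDD and 53.7% in DMSO. The gap is thus not particular to the 99, and it was not tested. The 5 with the most covered length in the controls lay near ZC3H11B, DMRTA1, TMEM132C and SGCZ and in SPATA13. The one nearest to DMRTA1, a transcription factor gene (chr9:22682911-22684200), had 523 and 614 bp in untreated KMS11, 438 and 1016 bp in DMSO day 10 and 1063 and 948 bp with NSD2LDD at day 4, against 0 bp in all 4 libraries of TKO and NSD2LDD day 10 (NSD2LDD minus DMSO log2 difference -2.94 ± 0.25 SE, limma adjusted p = 0.000274). The region in SPATA13, a gene for a RAC and CDC42 exchange factor (chr13:24096892-24097929), had 468 and 583 bp in untreated KMS11, 337 and 946 bp in DMSO day 10, 1010 and 683 bp with NSD2LDD at day 4 and 0 bp in the same 4 libraries. Both regions were still open in the day 4 degrader libraries.

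Gains were counted in the same way. Of 51687 regions closed in all 4 controls 529 were open in both TKO libraries and 616 in both NSD2LDD day 10 libraries. The sets shared 68, 12.9% of the TKO gains and 11.04% of the NSD2LDD gains. With lists of equal length they numbered 939 and 232, with 60 shared. With libraries left out in turn TKO gains rose to as many as 2825 with the first TKO library alone, NSD2LDD gains to as many as 3731 with the second NSD2LDD library alone, and shared gains ran from 68 to 216. Of the 68, both NSD2LDD day 4 libraries held a peak in 20 and both DMSO day 4 libraries in 11. The 5 with the most covered length lay at AGTR2, EOLA2, SKA1, PLCH2 and HTR2A.

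The limma fit gave the same comparison on a scale. Of 69191 regions, 109 (0.158%) were lower and 136 (0.197%) higher with NSD2LDD than in DMSO at day 10, and TKO was lower in 2146 (3.1%) and higher in 669 (0.967%) against untreated day 0. With a replicate block the degrader's counts were 68 and 62. Of the 109 regions lower with NSD2LDD, 44 were called lower and 2 higher in TKO, and 105 (96.3%) had a difference below 0 there, against 73.9% of all regions. Their median TKO difference was -0.36, against -0.14 over all regions. Of the 136 higher with NSD2LDD, 18 were called higher and 8 lower in TKO, and 26.5% were above 0 there, against 26.1% of all regions. Their median TKO difference was -0.139, the same as over all regions. Scaling gives a region without a peak in TKO and untreated day 0 a fixed value, here below 0. The shares below and above 0 count such empty regions, so they cannot show whether the 2 effects share a direction. Taken from the other side, the 2146 regions lower in TKO had a median NSD2LDD difference of -0.06, and 44 were called lower and 8 higher. Both contrasts use 1 estimate of the spread per region, so a region with little spread is called more readily in both. Across the 69191 regions the 2 effects had a Pearson correlation of 0.10 and a Spearman correlation of 0.06, and across 16738 genes 0.11 and 0.04.

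The difference between the 2 effects was tested in 1 contrast. TKO's effect was lower than the degrader's in 1168 regions (1.69%) and higher in 288 (0.416%), and at genes in 195 (1.17%) and 33 (0.197%). The higher calls moved most with the first untreated day 0 library: without it 1084 regions were lower and 1149 higher, and 188 genes lower and 362 higher. Over the other 7 libraries left out in turn, the higher regions ran from 110 to 270 and the higher genes from 13 to 43. The lower regions numbered 754 without the second NSD2LDD library, and the lower genes 94 without the first DMSO library and 125 or 113 without the first or the second NSD2LDD library. The genes with the lowest difference were FABP7, PDE10A, ZMAT4, PTPRO and SLC4A4, at -3.97, -3.87, -3.82, -3.55 and -3.45. For FABP7 the TKO effect was -3.19 and that of the degrader 0.78, and for PDE10A -4.06 and -0.20. CD5L had the highest difference (3.46 ± 0.72 SE, limma adjusted p = 0.0244), with an effect of 1.88 in TKO and -1.59 with NSD2LDD, the latter past no threshold (limma adjusted p = 0.883). Its call was lost in 11 alternatives, with adjusted p-values up to 0.801. LAIR1, MUCL3 and PTPRS followed, with LOC124904106, whose window overlaps the lysine 27 demethylase gene KDM6B. Over gene ends alone the PTPRS value was -0.15. Only scaling can give that sign, as no KMS11 library outside TKO had a peak at PTPRS. Among regions, 1 nearest to SOX2, a stem cell factor gene (chr3:181955364-181956487), had 318 and 251 bp in untreated KMS11, 0 and 0 bp in TKO and in DMSO day 10, and 581 and 615 bp with NSD2LDD day 10. Both day 4 groups had it open, with 902 and 597 bp in DMSO, so the DMSO day 10 libraries stood apart from the other treated ones. Regions nearest to ADCYAP1 and IFNA7 had the same pattern, as had 1 nearest to LOC124901495 and 1 in KHDRBS2. In the other direction the regions lay at ARHGEF28, CD5L, CHST11, DNAH5 and IL6ST.

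Finally, regions were chosen without any treated library and followed through treatment. Of 2760 regions open in both untreated day 0 and closed in both TKO libraries, the 4 NSD2LDD libraries held a peak in 81.7% ± 7.0 (SD, n = 4) and the 4 DMSO libraries in 85.5% ± 6.6 (SD, n = 4). The difference of -3.75 percentage points was within the spread (two-sided exact permutation test over 70 relabellings, p = 0.4; the smallest p possible is 0.0286). At day 10 the shares were 75.3% and 76.1% with NSD2LDD and 76.4% and 85.0% in DMSO, and at day 4 86.6% and 88.9% against 89.5% and 91.1%. On each day both degrader libraries lay below both DMSO libraries. With labels exchanged within each day, a test added after seeing the data, p was 0.0556, the smallest that its 36 relabellings can give. The set depends on single libraries: without the second untreated day 0 library it held 9440 regions, 45.4% to 60.9% of them with a peak in each of the 8 libraries, and the difference was -1.95 points (exact permutation within days, p = 0.5). Of 1307 regions closed in untreated day 0 and open in both TKO libraries, NSD2LDD libraries held a peak in 48.9% ± 8.7 (SD, n = 4) and DMSO libraries in 42.8% ± 6.5 (SD, n = 4), a difference of 6.06 percentage points (exact permutation test, two-sided, p = 0.371). At day 10 they were 47.1% and 60.8% with NSD2LDD and 39.1% and 48.8% in DMSO, and exchange of labels within days gave p = 0.333 by the exact permutation test. This set also moved with single libraries. It held 4592 regions without the first untreated library, with shares of 67.7% to 83.4%, and 2881 and 4954 without the first or the second TKO library, with shares of 23.7% to 39.8% and 23.8% to 45.1%. Of 17689 regions open in all 4 day 0 libraries, 99.4% and 99.3% had a peak. In neither set did the difference pass a test, and the within-day design could not reach 0.05.

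**Figure D5:**
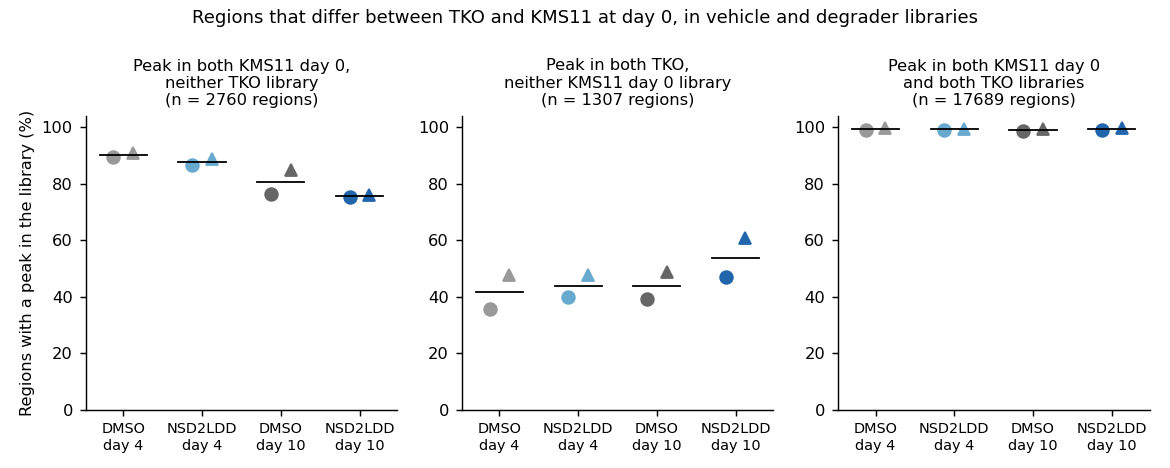
Share of regions (%) with a peak in each DMSO (grey) and NSD2LDD (blue) library of KMS11, for regions closed in TKO and open in untreated day 0 (left), the reverse (middle) and open in both (right). Circles are duplicate 1, triangles duplicate 2, lines the mean of the pair; at day 10 the NSD2LDD mean differs from that of DMSO by -4.98 points on the left and 9.95 points in the middle, and the day 10 groups overlap in the middle and not on the left.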

How the data were processed

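ATAC-seq used 200K cells per library, per the labels' protocols. The submitters' processing notes name fastp, BWA, SAMtools, Picard, MACS3 and deepTools and the build hg38, with no versions. The authors deposited 1 list of peaks per library, called separately, with fold enrichment (a ratio over background) and a −log10 q-value per peak; every peak had a −log10 q of at least 2. No read counts were used. Peaks on chromosomes 1 to 22 and X were merged into regions, and the bases covered by peaks gave each region and gene a value, so a wider peak counts more. Genes are 19974 protein-coding genes of RefSeq GRCh38.p14.

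Regions (log2 of covered bases plus 100) and genes (plus 200) covered in at least 2 libraries were fitted with limma 3.58.1 (R 4.3.3; trend and robust options) with 1 mean for each of 11 groups over 22 libraries and Benjamini-Hochberg adjustment at 0.05. The tests were checked on simulated data. The share of a region set with a peak was compared between libraries by an exact permutation test. Alternatives were a −log10 q minimum of 5, lists cut to 24979 peaks, other scaling, filters, added bases, windows and samples, a replicate block, and each library left out.

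Named genes were, by a fixed rule, the 10 largest falls and rises among calls, up to 4 called members of each list, and NSD2, FGFR3, MYC, CCND2, IRF4 and MAF; named regions were the 8 largest of each class, and the 5 largest genes and regions of the difference of effects and of regions lost or gained in both. SPOCK1 and KCNC1 were named after their values were seen. The comparison, gene lists and motifs were chosen with earlier results of these data known. KMS34 libraries entered only the spread and the shares given. Some named results are not reported here.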

Additional observations from a re-analysis of the deposited data

How the results depend on the processing

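With lists of equal length, 1975 regions were open with NSD2LDD alone and 1241 in TKO alone, a ratio of 1.591. In that setting limma called 1493 regions lower and 933 higher in TKO than with NSD2LDD, 244 genes lower and 81 higher, and 710 regions higher in the difference of effects; 200 regions were lost with NSD2LDD, 939 gained in TKO and 232 gained with NSD2LDD. Asking for at least 50% of a region to be covered left 12607 regions in all 4 libraries, 605 lost in TKO, 38 lost with NSD2LDD, 37 lost in both and 24 gained in both.

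For TKO minus NSD2LDD, quantile normalization gave 2073 regions lower and 845 higher, list length as a covariate 2034 regions and 268 genes lower, and no scaling 8 genes higher. KMS11 libraries alone gave 1669 regions lower, 313 higher and 18 genes higher, and the 4 libraries alone 0 regions lower and 0 higher (6038 at an unadjusted p under 0.05 by limma), 173 genes lower and 4 higher, with fewer degrees of freedom. Regions called in at least 4 libraries gave 315 higher, and calls in place of lengths 299 higher. Genes with 1000 bp added numbered 261 lower and 28 higher, and gene ends alone 212 and 16.

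For the difference of effects at regions, quantile normalization gave 554 higher, KMS11 libraries alone 707 lower and 44 higher, the 8 libraries of the contrast alone 83 and 2, 30 bp added 449 higher, 300 bp added 581 and 78, and filters of at least 1 and 4 libraries 136 and 166 higher. At genes, peaks with a −log10 q of 5 or more gave 57 higher, no scaling 28 lower and 1 higher, list length as a covariate 56 higher, KMS11 libraries alone 101 and 6, the 8 libraries alone 37 and 1, 50 bp added 53 higher, 1000 bp added 43 and 1, windows of 50 kb 78 higher, and gene ends alone 67 lower. The cause of these moves was not tested.

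Leaving out 1 library at a time, where a group of 1 is assumed to vary like the others, gave 5681 to 9855 regions open with NSD2LDD alone, 863 to 3013 open in TKO alone and ratios of 1.885 to 11.419. Regions higher in TKO ran from 586 to 947, genes lower from 192 to 428 and genes higher from 20 to 34. In the difference of effects, regions ran from 754 to 1216 lower and 110 to 1149 higher, and genes from 94 to 216 lower and 13 to 362 higher. Lost regions ran from 1960 to 3489 in TKO, 118 to 419 with NSD2LDD and 100 to 298 in both, and gained ones from 529 to 2825, 616 to 3731 and 68 to 216.

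The labels do not say what a duplicate number marks. Deviations of same-numbered duplicates correlated at -0.091 over regions and -0.212 over genes between TKO and NSD2LDD day 10, at 0.05 and 0.188 between TKO and untreated day 0, and at 0.203 and 0.274 between NSD2LDD and DMSO at day 10. Same-numbered libraries thus deviated together within the degrader's own comparison and, over genes, that of TKO, and not across the main one. A replicate block gave 2935 regions lower and 488 higher, 417 genes lower and 37 higher, and 176 regions higher in the difference of effects. For NSD2LDD minus DMSO at day 10 the replicate block gave 68 regions lower and 62 higher and 3 genes lower and 1 higher, and a block over the KMS11 day 10 libraries alone gave 115 regions higher and 1 gene lower and 2 higher. With that block 1245 regions were lower and 335 higher in the difference of effects. The crossed block gave 433 genes lower and 38 higher. These 3 sets of fits were added after seeing the data.

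Of 78 called results named in the text, 12 passed under every alternative tried and 66 lost the call in at least 1, most often with the libraries of the contrast alone (45) and with lists of equal length (30). Signs turned for CD6 with peaks of −log10 q of 5 or more (0.288) and for PTPRS in the difference of effects with gene ends alone (-0.150). CD6 had no peak in TKO, and PTPRS had none in any KMS11 library outside TKO. Only scaling can give these turned signs, so they are not reversals in covered bases. Values were also above 0 for CD6 (0.203) and NKX2-1 (0.203) with lists of equal length. With gene ends alone they were so for RRAS2 (0.204), WT1 (0.204) and KCNMA1 (0.204). Values shared by several genes in a setting are what scaling gives where neither group has a peak. They are not differences in covered bases. The tests of peaks in regions closed or opened in TKO passed the threshold in no setting, although the sets themselves ran from 2760 to 9440 and from 1307 to 4954 regions with libraries left out. Depth is unknown, so a region without a peak may be open below the caller's limit.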
